A study of Homo sapiens with 32 samples.

Results

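The genes described here are the matrix metalloproteinases (MMPs), the ADAMTS proteases and the tissue inhibitors of metalloproteinases (TIMPs). Members were chosen by symbol, as each MMP or ADAMTS symbol that ends in a number and as TIMP1, TIMP2, TIMP3 and TIMP4. This gave 45 of the 28278 gene symbols of the count tables: 22 MMP, 19 ADAMTS and 4 TIMP genes. The same 45 genes were found by Ensembl identifier among the 60199 genes of the knockdown table. RNA was sequenced from Ewing sarcoma cell lines, tumour lines driven by a fusion of EWSR1 with an ETS factor, in which STAG2, STAG1 or a subunit of Polycomb repressive complex 2 (PRC2) had been removed. STAG2 and STAG1 are alternative subunits of cohesin, the ring that folds chromosomes into loops, and EZH2 and SUZ12 are subunits of the histone methyltransferase PRC2.

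MMPs are zinc-dependent endopeptidases that cut collagens, gelatins, laminins, proteoglycans and many cell-surface proteins, and most are made as zymogens whose propeptide is removed outside the cell or, in the membrane-type MMPs, by furin on the way to the surface. ADAMTS proteases are secreted, bind the matrix through thrombospondin repeats, and cut proteoglycans, procollagens or von Willebrand factor according to the member. TIMPs bind the active site of MMPs, TIMP3 also inhibits ADAMTS and ADAM proteases, TIMP2 also helps MMP14 to activate MMP2, and in sarcomas the balance of these proteins is studied for invasion and remodelling of the matrix.

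All A673 knockout (KO) libraries came from clones of a single A673 clone that carries a doxycycline-inducible Cas9 at the AAVS1 locus, and that clone with unedited genes is the WT clone. Experiment 1 held 2 libraries of the WT clone (a and b), 1 of parental A673 cells and 2 of STAG2 KO cells (5 and 24). Experiment 2 held 2 libraries of the WT clone (1 and 2), 1 of parental cells, 3 of STAG2 KO cells (3, 5 and 2), 3 of EZH2 KO cells and 3 of SUZ12 KO cells (1, 2 and 3 of each). Experiment 3 held 1 library of the WT clone, 1 of parental cells and 3 of STAG1 KO cells (1, 5 and 7). In experiment 4, A673 cells received siRNA against STAG2 (siSTAG2, 3 libraries) or, as figure legends of the study say, a mock transfection (labelled WT, 3 libraries). SK-N-MC cells, which express STAG2, gave 1 library unedited and 1 with STAG2 KO. A4573 cells lack STAG2, and gave 1 library as they are and 1 with STAG2 restored by knock-in (KI). Library numbers are those of the deposited columns, and for STAG2 KO in experiment 1 and STAG1 KO these do not match the clone numbers in the sample titles. The controls of all A673 knockouts are 1 clone and 1 parental line, and reads of overlapping genes cannot be told apart by strand because the libraries do not mark it. Such an overlap concerned MMP1 and MMP3 with WTAPP1, MMP9 with SLC12A5-AS1, MMP19 with TMEM198B, MMP21 with EDRF1, TIMP2 with CEP295NL and TIMP4 with SYN2, antisense genes at MMP20, MMP24, MMP25, ADAMTS9 and ADAMTS19, and genes without a symbol at MMP2, MMP16, MMP24, ADAMTS3, ADAMTS17, ADAMTS18, ADAMTS19 and TIMP2.

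Totals were 15734628 to 20663679 counts in the 22 A673 libraries of experiments 1 to 3 and 29322507 to 32261248 in the 4 libraries of the pairs. From the knockdown values, 6852340 to 8184632 reads per library were recovered. A level below is given as CPM (counts relative to the library total, scaled by TMM within an experiment), or in the authors' normalized reads for the knockdown. Between STAG2 KO 3 and STAG2 KO 2 of experiment 2 the mean chi-square per gene, which is near 1 for counting noise alone, was 25.7, while STAG2 KO 5 of that experiment differed from them by 113 and 140. The WT clone libraries a and b of experiment 1 differed by 1.33, close to counting noise, and whether they are repeats of 1 RNA sample was not tested. Summed into 1 library, they left 9 members called in STAG2 KO cells in place of 12, beside 1154 of 13411 genes.

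The targeted genes were read first, as a check of the labels. STAG2 was at 295 and 302 CPM in the WT clone and 283 CPM in the parental line of experiment 1, and at 43.1 and 185 CPM in STAG2 KO 5 and 24. Experiment 2 had 281 and 342 CPM in the WT clone and 243 CPM in the parental line, against 68.3, 59.5 and 62.6 CPM in STAG2 KO 3, 5 and 2. All STAG2 KO libraries lay below all controls, and STAG2 KO 24 of experiment 1 had the highest STAG2 level among them. After knockdown, STAG2 fell from 1068, 992 and 1089.7 normalized reads in the control libraries to 144, 179.9 and 153 in the siSTAG2 libraries. EZH2 was at 45.4, 55.4 and 28.4 CPM in its 3 KO libraries against 163 and 168 CPM in the WT clone and 185 CPM in parental cells. SUZ12 was at 15.6, 11 and 20.5 CPM in its KO libraries against 56.9 and 63.6 CPM in the WT clone and 57.8 CPM in parental cells. STAG1 was at 62.7, 15.5 and 33.9 CPM in the libraries labelled STAG1 KO 1, 5 and 7, and at 59.2 and 70.3 CPM in the WT clone and the parental line of experiment 3. The library labelled STAG1 KO 1 therefore had STAG1 RNA at the control level, while the other libraries of that group were below it. RNA at the control level does not show whether the protein was present, and STAG2 KO 24 also kept part of its STAG2 RNA. The study describes its STAG1 clones as deficient and shows an immunoblot of clones, which could not be matched to these columns. In the pairs, STAG2 was at 292.8 CPM in SK-N-MC and 184 CPM in its KO, and at 34.1 CPM in A4573 and 86.9 CPM in its knock-in.

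Markers checked the labelled cell type. The 8 listed markers of Ewing sarcoma cells, of which CCND1 was the most abundant and CD99 alone was listed at 0 in these 22 A673 libraries, summed to less without STAG2 within each experiment; by gene, 2 of 7 rose and 2 fell in STAG2 KO cells. Controls and KO had 3181 to 3614 and 2142 to 2905 CPM in experiment 1 and 2481 to 2733 and 1898 to 1992 CPM in experiment 2, and controls and siSTAG2 25953.7 to 26933.9 and 21361.6 to 22233.1 normalized reads. They summed to 2777 to 3115 CPM in EZH2 KO and 2758 to 3137 CPM in SUZ12 KO libraries, and to 3950 and 4722 CPM in the controls of experiment 3 beside 3782 to 4654 CPM in STAG1 KO libraries as labelled. The fibroblast list (COL1A1, COL3A1, LUM, DCN and PDGFRA) summed to 417 to 440 CPM in the controls and 179 to 348 CPM in STAG2 KO libraries of experiment 1, and to 382.9 to 965 and 306 to 498 CPM, which overlap, in experiment 2. It summed to 1094 to 1466 CPM in the libraries labelled STAG1 KO against 394 to 465 CPM in their controls, to 587 to 668 CPM in EZH2 KO and 297 to 348 CPM in SUZ12 KO libraries, and to 1095 to 1319 normalized reads in the knockdown controls against 452.5 to 471 with siSTAG2. In STAG1 KO cells its genes went different ways, with log2 fold changes of 3.27 for COL1A1, 0.62 for COL3A1, -0.83 for DCN, -1.01 for PDGFRA and -5.08 for LUM. These are bulk samples of cultured tumour lines and not of tissue. The lists therefore give levels of these genes in the cultures and do not show that other cell types were present. Fewer cells with a gene on and less RNA per cell cannot be told apart, and the part of these shifts in the results was not tested. Endothelial markers (PECAM1, CDH5, VWF and KDR) summed to 1.17 to 2.13 CPM in the controls of experiment 2, 2.57 to 4.01 CPM in EZH2 KO and 3.06 to 7.18 CPM in SUZ12 KO libraries, to 1.56 and 1.58 CPM in the controls of experiment 3 and 2.42 to 7.38 CPM in STAG1 KO libraries as labelled, and in STAG2 KO libraries to 0.824 to 0.968 CPM in experiment 1, within the 0.793 to 1.11 CPM of its controls, and 0.436 to 0.945 CPM in experiment 2. Epithelial markers (EPCAM, CDH1, KRT5 and KRT14) summed to 0.106 to 0.161 CPM in the controls of experiment 2, 0.286 to 0.438 CPM in EZH2 KO and 0.573 to 2.73 CPM in SUZ12 KO libraries, and to at most 0.892 CPM in the other A673 libraries of experiments 1 to 3. In SK-N-MC cells they summed to 0.941 CPM, and to 9.99 CPM in the KO.

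Of the 45 members, 4 were at 0 counts in each of the 26 libraries counted by symbol: ADAMTS18, MMP20, MMP26 and MMP27. With MMP7, 5 had at most 3 counts in each of them, the floor used here. In the replicated A673 comparisons 30 members passed the filter on low values in at least 1 comparison, and 38 were tested there or compared in a pair. The 7 that were tested nowhere were ADAMTS18, MMP7, MMP12, MMP20, MMP21, MMP26 and MMP27. In the knockdown table, a total of 11 members were listed at 0 in each of the 6 libraries. TIMP3 was among them, although it stood between 58.2 and 240.2 CPM in the other A673 libraries. The reason was not tested, and TIMP3 has no knockdown value.

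Per kilobase of exon, the highest median level over the controls of experiments 1 to 3 was that of TIMP1 at 103 CPM per kb. The range over those control libraries was 77.4 to 152.5 CPM per kb. MMP14, the main membrane-type collagenase, followed at 41.8 CPM per kb (27.4 to 52.8), TIMP3 at 35.8 (26.5 to 42.8), the interstitial collagenase MMP1 at 33.6 (7.87 to 139.5) and TIMP2 at 24.4 (21.9 to 36.6). The ranges of MMP14, TIMP3, MMP1 and TIMP2 overlapped, and that of MMP1 spanned all of them and overlapped that of TIMP1. The gelatinase MMP2 stood at 13.9 CPM per kb (8.59 to 23.2), TIMP4 at 8.87 (3.65 to 11.1) and the stromelysin MMP10 at 4.90 (3.35 to 9.71). The most abundant ADAMTS genes per length were ADAMTS10 at 3.37, ADAMTS1 at 2.71 and ADAMTS4 at 2.61 CPM per kb, and their ranges overlapped.

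In STAG2 KO cells, tested with edgeR against the WT clone and parental cells of experiments 1 and 2 with experiment as a term, 12 of 25 members were called (adjusted p under 0.05), of which 5 were higher and 7 lower. Of all 13574 genes tested, 12.4% were called. The median log2 fold change was -0.52 over the members and 0.04 over all genes. In experiment 2 alone 0 members were called higher and 5 lower, beside 494 of 13383 genes. With the WT clone as the only control 2 were called higher and 8 lower, beside 1278 of 13562 genes. With both experiments and all controls but without STAG2 KO 5 of experiment 1, 7 members were called, beside 1292 of 13824 genes. Without STAG2 KO 5 of experiment 2, 17 were called, beside 4048 of 13670 genes. That fit added ADAMTS6 (-3.04), ADAMTS7 (-1.83), ADAMTS13 (-2.55), ADAMTS16 (-2.46) and MMP19 (1.15), at adjusted p 0.000596 to 0.0452. Here and below, called refers to edgeR with all libraries, or limma for the knockdown, unless another tool or setting is named. After knockdown of STAG2, tested with limma, 9 of 17 members were called, 1 higher and 8 lower, where 20.5% of 12060 genes were called. The median log2 fold change was -0.36 over the members and 0.01 over all genes.

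In STAG1 KO cells 5 of 26 members were called with edgeR, all higher, beside 5.27% of 14373 genes. The median log2 fold change was 0.21 over the members and 0.00 over all genes. Leaving out the parental line or the WT clone of experiment 3 left 0 members called, and also 0 of all 14750 and 14846 genes then tested. With all libraries, 13 members had an unadjusted p under 0.05, and DESeq2 called 13, of which 11 were higher and 2 lower, beside 1913 of 14373 genes. Without the library labelled STAG1 KO 1, 8 were called, beside 1310 of 14239 genes. That fit added ADAMTS1 (-1.26), MMP2 (1.05) and TIMP3 (-1.04), at adjusted p 0.0205 to 0.0499. The effect of STAG2 KO minus that of STAG1 KO, each against its own controls, was called for 8 of 26 members with edgeR, 2 with a higher and 6 with a lower effect of STAG2 KO, beside 6.11% of 14696 genes. The median of that difference was -1.46 over the members and 0.00 over all genes. The count was 3 without the parental line or the WT clone of experiment 3, and 14 without STAG2 KO 5 of experiment 2 (1860 of 14627 genes), which added ADAMTS6 (-2.76), ADAMTS7 (-4.51), ADAMTS12 (-5.39), ADAMTS14 (-4.05), ADAMTS15 (-3.31) and MMP1 (-4.0), at adjusted p 0.00197 to 0.0428. It was 5 without any of the STAG1 KO libraries 1, 5 and 7 as labelled, STAG2 KO 5 of experiment 1, STAG2 KO 2 of experiment 2, or any WT clone library of experiments 1 and 2. Of all genes, 602 to 914 were called in those fits, against 898 with all libraries.

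In EZH2 KO cells 7 of 30 members were called with edgeR, 4 higher and 3 lower, beside 15.7% of 15130 genes, and in SUZ12 KO cells 10 of 30, 5 higher and 5 lower, beside 20.6%. The medians over the members were 0.62 and 0.13 on the log2 scale, against 0.04 and 0.01 over all genes. Scaled by library size alone, the median of all genes moved to 0.20 and 0.19, so that 87.5% of called genes were higher in EZH2 KO cells in place of 76.5%, and 83.8% in SUZ12 KO cells in place of 71.5%. The members split with that scaling into 5 higher and 2 lower in EZH2 KO cells, and into 6 higher and 3 lower in SUZ12 KO cells. The EZH2 count was 3 without WT clone 1 of experiment 2 (1169 of 15538 genes). It was 4 without WT clone 2 of experiment 2 (1227 of 15542 genes) or EZH2 KO 3 (1760 of 15503 genes). It was 11 without STAG2 KO 5 of experiment 2, a library of neither group (3885 of 15448 genes). That fit added ADAMTS10 (0.85), ADAMTS13 (1.95), ADAMTS14 (-1.88) and MMP25 (1.76), at adjusted p 0.0218 to 0.0476. The SUZ12 count was 6 without SUZ12 KO 2 (1971 of 15344 genes), WT clone 1 (1874 of 15538 genes) or WT clone 2 (1907 of 15542 genes) of experiment 2. Between EZH2 KO and SUZ12 KO themselves, 0 of 30 members were called with edgeR, beside 0.00661% of 15130 genes, and 6 members had an unadjusted p under 0.05; no other tool was run on this contrast. These comparisons share the 3 controls of experiment 2, which are also controls of the STAG2 KO comparison.

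The WT clone was compared with parental cells over experiments 1 to 3 to see how far the members differ between populations that both have STAG2. With edgeR 3 of 26 members were called, all higher in the WT clone, beside 2.72% of 14167 genes: ADAMTS12, MMP9 and MMP2. The count was 0 without WT clone 1 (98 of 14058 genes) or WT clone 2 (102 of 14134 genes) of experiment 2. It was 1 without WT clone b of experiment 1 (186 of 14018 genes) or the parental line of experiment 2 (211 of 14441 genes). It was 7 without the WT clone (924 of 14031 genes) or the parental line (953 of 14302 genes) of experiment 3. Leaving out that WT clone library added ADAMTS10 (0.65), ADAMTS13 (1.21), ADAMTS16 (2.0), MMP1 (-0.78) and MMP25 (1.61), at adjusted p 0.00351 to 0.0496.

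**Figure D1:**
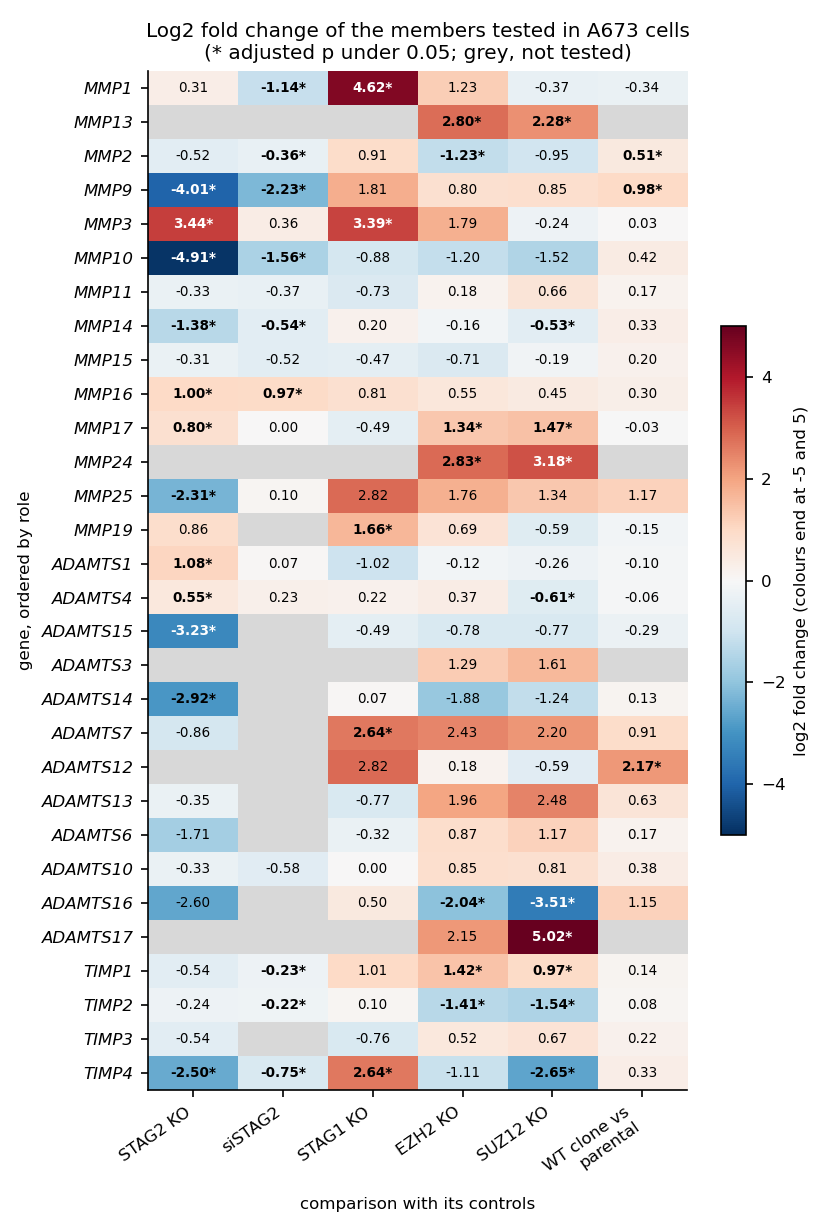
Log2 fold change (colour and number) of the 30 tested members (y axis, by role) in 6 comparisons of A673 cells with their controls (x axis). An asterisk marks an adjusted p under 0.05 and grey a member not tested. MMP9 and MMP10 have their lowest values in the STAG2 KO column, at -4.01 and -4.91.

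Of the members, 9 lie in a cluster on the long arm of chromosome 11: the collagenases MMP1, MMP8 and MMP13, which open fibrillar collagen, the stromelysins MMP3 and MMP10, which cut proteoglycans and activate other proMMPs, the macrophage elastase MMP12, the small matrilysin MMP7, the enamel protease MMP20, and MMP27. In STAG2 KO cells MMP10 fell and MMP3 rose, while MMP1, which lies between them, was not called. Stromelysin 2, MMP10, had the largest fall of the members in STAG2 KO cells with both experiments fitted together. In experiment 2 alone MMP9 had a larger fall (log2 fold change -4.72, against -3.82 for MMP10). In experiment 1 MMP10 was at 12.1 and 12.3 CPM in the WT clone and 5.9 CPM in the parental line, and at 0 and 0.057 CPM in STAG2 KO 5 and 24. In experiment 2 the controls had 5.97 and 5.96 CPM in the WT clone and 9.16 CPM in the parental line, and the KO libraries 0.156, 1.1 and 0.218 CPM in STAG2 KO 3, 5 and 2. The groups were apart in both, and STAG2 KO 5 of experiment 2, with 21 counts, was the highest KO library. MMP10 fell in STAG2 KO cells (log2 fold change -4.91, SE 0.815, adjusted p 0.00315, edgeR) and stayed called in each of the 11 fits that leave out a library (-6.17 without STAG2 KO 5 of experiment 2). After knockdown it went from 21.9, 18.7 and 22.9 normalized reads in the control libraries to 6.66, 10.2 and 3.86 in the siSTAG2 libraries. All siSTAG2 libraries were below all controls, and MMP10 fell there too (log2 fold change -1.56, SE 0.367, adjusted p 0.00284, limma). In the libraries labelled STAG1 KO it was at 3.95, 7.16 and 9.36 CPM beside 17.1 CPM in the WT clone and 8.09 CPM in parental cells, overlapping the controls and not called. EZH2 KO libraries had 1.15 to 4.82 CPM of MMP10 and SUZ12 KO libraries 0.669 to 4.14 CPM, all below the controls of experiment 2. Neither difference was called with edgeR (log2 fold changes -1.20, adjusted p 0.297, and -1.52, adjusted p 0.174).

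Its promoter is shown because MMP10 had the largest fall with both experiments fitted together. Promoters were read from the RefSeq table on GRCh38.p14, as the 250 bases before the start, and 26 of the 45 members had an entry (MMP1, MMP2, MMP3, MMP9, MMP12, MMP13, MMP16, MMP17, MMP19, MMP25, MMP28, ADAMTS1, ADAMTS4, ADAMTS5, ADAMTS8, ADAMTS9, ADAMTS15, ADAMTS16 and TIMP2 had none). Both strands were searched for a TATA box (letters TATAAA), for the AP-1 motif (letters TGAGTCA) and for adjacent GGAA units of the kind that ETS factors such as the Ewing fusion can bind (letters GGAAGGAA). TATAAA was found in 10.7% of all 35116 promoters and in 7 of the 26 members: ADAMTS10, MMP7, MMP8, MMP10, MMP20, MMP21 and MMP26. TGAGTCA was found in 4.2% of all promoters and in 1 member, MMP7. The capitals mark TATAAA, 31 bases before the start of MMP10 (chr11:102780629-102780878, minus strand).
MMP10: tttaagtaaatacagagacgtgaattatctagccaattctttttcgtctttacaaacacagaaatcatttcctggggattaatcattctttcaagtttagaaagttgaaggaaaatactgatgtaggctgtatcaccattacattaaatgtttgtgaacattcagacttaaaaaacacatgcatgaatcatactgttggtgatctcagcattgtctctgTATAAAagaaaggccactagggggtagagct
This stretch holds 2 CpG dinucleotides, where the median was 18 over the 26 members and 11 over all promoters. All 5 members of the cluster with an entry (MMP7, MMP8, MMP10, MMP20 and MMP27) had at most 3, as did 29.3% of all promoters. A match of letters describes the sequence and not a bound site.

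Stromelysin 1, MMP3, lies on the side of MMP1 that faces away from MMP10. It was at 1.63 and 1.11 CPM in the WT clone and 1.2 CPM in the parental line of experiment 1 and at 17.7 and 24.2 CPM in STAG2 KO 5 and 24. Experiment 2 had 1.72 and 2.13 CPM in the WT clone and 2.17 CPM in the parental line and 30.2, 2.99 and 15 CPM in STAG2 KO 3, 5 and 2. All KO libraries lay above all controls, with STAG2 KO 5 of experiment 2 the lowest of them. MMP3 rose in STAG2 KO cells (log2 fold change 3.44, SE 0.482, adjusted p 0.00112, edgeR) and stayed called in each fit that leaves out a library. In experiment 2 alone it was 2.98 and not called (adjusted p 2.32e-11 to 0.0731 over other settings). In experiment 3 it was at 0.67 CPM in the WT clone and 0.542 CPM in the parental line, and at 7.45, 4.79 and 7.1 CPM in the libraries labelled STAG1 KO 1, 5 and 7. The library labelled STAG1 KO 1, whose STAG1 RNA was at the control level, was as high as the others. MMP3 rose in STAG1 KO cells (log2 fold change 3.39, SE 0.36, adjusted p 0.0197, edgeR), a call lost without the WT clone of experiment 3 (adjusted p 0.126) or the parental line of experiment 3 (adjusted p 0.236). After knockdown it was at 9.53, 5.9 and 10.4 normalized reads in the control libraries and 6.66, 13.9 and 14.5 in the siSTAG2 libraries, and the groups overlapped (log2 fold change 0.36, adjusted p 0.581). EZH2 KO libraries had 6.26, 9.25 and 5.2 CPM, all above the controls of experiment 2, and the difference was not called (log2 fold change 1.79, adjusted p 0.163; 0.00472 to 0.279 over other settings, called with this KO and its controls alone).

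The interstitial collagenase MMP1 varied widely between controls. It was at 66.3 and 64.4 CPM in the WT clone and 117 CPM in the parental line of experiment 1, at 229 and 249 CPM in the WT clone and 382 CPM in the parental line of experiment 2, and at 46.1 CPM in the WT clone and 21.6 CPM in the parental line of experiment 3. STAG2 KO libraries had 81.2 and 253 CPM in experiment 1 and 444, 4.93 and 266 CPM in experiment 2. STAG2 KO 5 of experiment 2 was lower than all controls, and the other KO libraries were within or above the range of the controls beside them. MMP1 was not called in STAG2 KO cells (log2 fold change 0.31, SE 0.728, adjusted p 0.84, edgeR). The value was 1.0 in experiment 1 and -0.29 in experiment 2 alone. After knockdown it was at 258, 218 and 217 normalized reads in the control libraries and 119, 103 and 92.7 in the siSTAG2 libraries. The groups were apart, and MMP1 fell (log2 fold change -1.14, SE 0.119, adjusted p 6.68e-08, limma). In STAG1 KO libraries as labelled it was at 698, 1359 and 456 CPM, each above both controls of experiment 3, which were the lowest controls of the 3 experiments. It rose in STAG1 KO cells (log2 fold change 4.62, SE 0.626, adjusted p 0.0258, edgeR), and the call was lost without the WT clone of experiment 3 (adjusted p 0.128) or the parental line of experiment 3 (adjusted p 0.245). In experiment 2, EZH2 KO libraries had 413, 1049 and 537 CPM and SUZ12 KO libraries 142, 135 and 382 CPM, with log2 fold changes of 1.23 and -0.37 that were not called (for EZH2 KO, adjusted p 0.036 to 0.453 over other settings, called with this KO and its controls alone).

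Collagenase 3, MMP13, was near the floor in the controls of experiment 2, with 4 and 8 counts in the WT clone and 3 in parental cells. It had 32, 15 and 76 counts in the EZH2 KO libraries and 17, 24 and 43 in the SUZ12 KO libraries. In CPM this was 0.215 and 0.487 in the WT clone, 0.159 in parental cells, 1.53, 0.821 and 3.63 in EZH2 KO and 0.812, 1.06 and 2.31 in SUZ12 KO. All KO libraries were above all controls. MMP13 rose in EZH2 KO cells (log2 fold change 2.80, SE 0.708, adjusted p 0.0208, edgeR), with a ratio of pooled CPM (summed counts over summed scaled library totals) of 7.35 (95% counting interval 4.29 to 13.5). It rose in SUZ12 KO cells (log2 fold change 2.28, SE 0.706, adjusted p 0.0394, edgeR), with a ratio of 4.85 (2.78 to 9.05). The EZH2 call was lost without EZH2 KO 3 (adjusted p 0.0816), WT clone 1 (adjusted p 0.0942) or the parental line of experiment 2 (adjusted p 0.0861), and the SUZ12 call without EZH2 KO 1, STAG2 KO 3, SUZ12 KO 2, SUZ12 KO 3, WT clone 1, WT clone 2 or the parental line of experiment 2 (adjusted p 0.0509 to 0.136). With the WT clone as the only control neither was called (adjusted p 0.00443 to 0.0861 over other settings, and adjusted p 0.0164 to 0.133 over other settings).

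**Figure D2:**
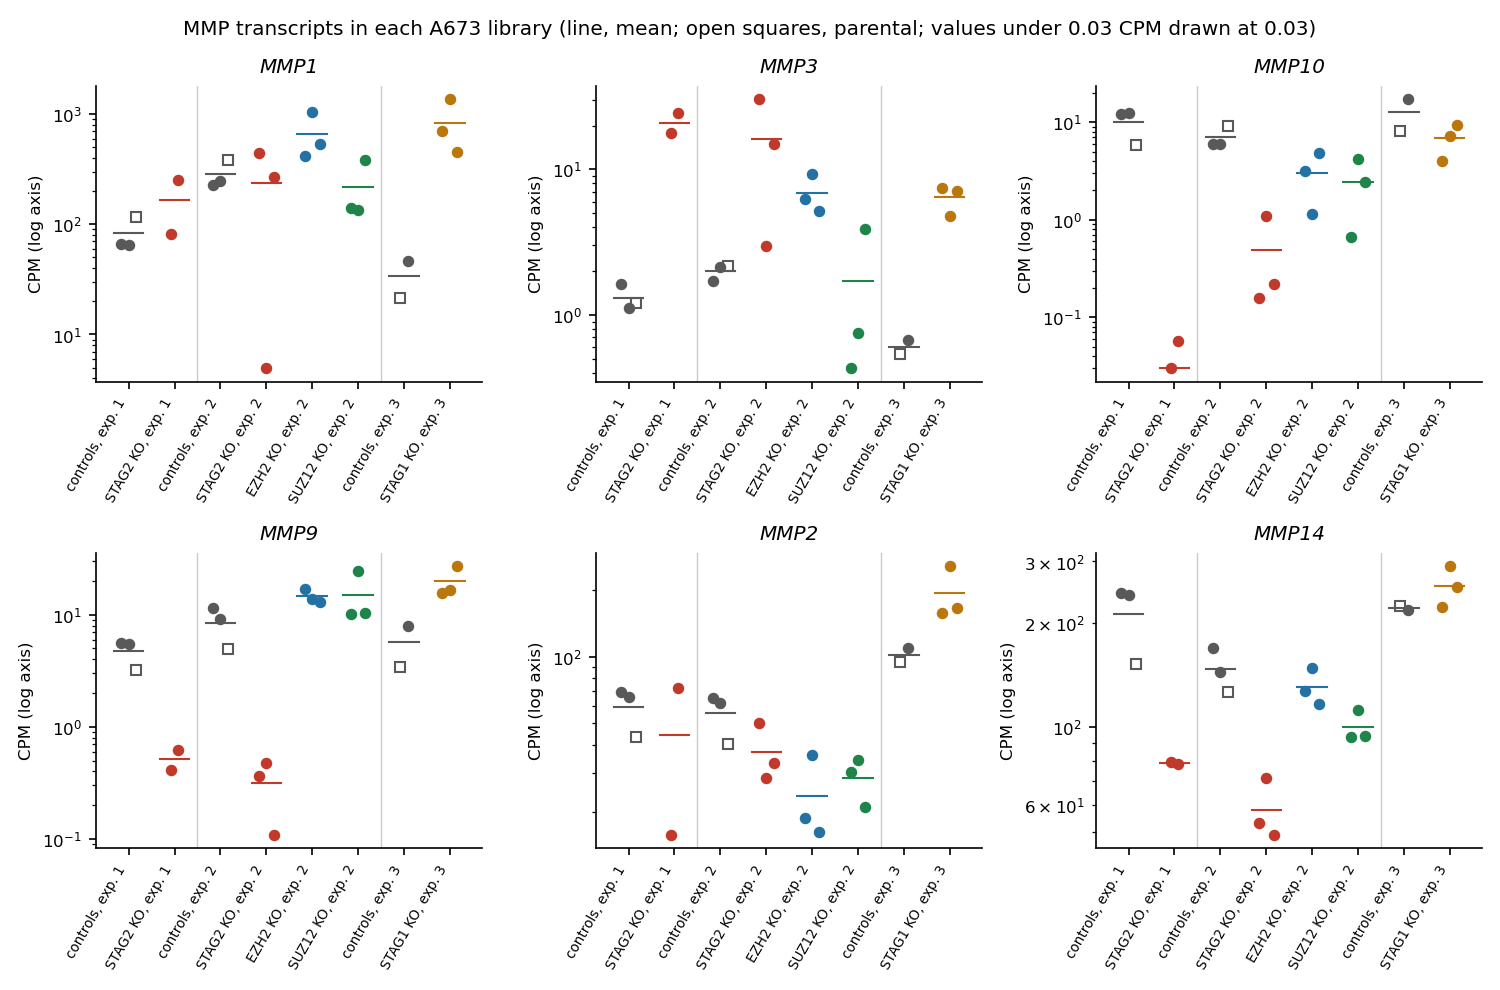
CPM on log axes (y) of MMP1, MMP3, MMP10, MMP9, MMP2 and MMP14 in each A673 library, by group and experiment (x). Points are libraries, open squares parental cells and lines group means. MMP9, MMP10 and MMP14 are lower in all STAG2 KO libraries than in the controls beside them, and MMP3 is higher.

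The gelatinases cut denatured collagen and type IV collagen of basement membranes. MMP9 was at 5.61 and 5.44 CPM in the WT clone and 3.24 CPM in the parental line of experiment 1 and at 0.412 and 0.626 CPM in STAG2 KO 5 and 24. In experiment 2 it was at 11.4 and 9.13 CPM in the WT clone and 4.98 CPM in the parental line and at 0.364, 0.472 and 0.109 CPM in STAG2 KO 3, 5 and 2. All KO libraries were below all controls, with 2 to 11 counts each. MMP9 fell in STAG2 KO cells (log2 fold change -4.01, SE 0.474, adjusted p 0.000433, edgeR), and the log2 fold change stayed between -4.33 and -3.76 with any library left out. It fell after knockdown, from 32.4, 38.4 and 29.2 normalized reads in the control libraries to 11.1, 5.56 and 3.86 in the siSTAG2 libraries, with the groups apart (log2 fold change -2.23, SE 0.346, adjusted p 3.03e-05, limma). EZH2 KO libraries had 17, 13.9 and 13 CPM and SUZ12 KO libraries 10.2, 24.7 and 10.5 CPM, not called (log2 fold changes 0.80 and 0.85). Experiment 3 had it at 7.87 CPM in the WT clone and 3.45 CPM in the parental line and at 15.7, 16.5 and 27.3 CPM in the libraries labelled STAG1 KO 1, 5 and 7, all above the controls. That difference was not called with edgeR (log2 fold change 1.81, SE 0.431, adjusted p 0.0688; 0.000381 to 0.0707 over other settings, called with DESeq2 and with no filter). The WT clone was above parental cells within each experiment (log2 fold change 0.98, SE 0.162, adjusted p 0.015, edgeR), a call lost without WT clone 1 (adjusted p 0.0773), WT clone 2 (adjusted p 0.0569) or the parental line of experiment 2 (adjusted p 0.0648), and with no experiment term.

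The other gelatinase, MMP2, was at 69 and 65.9 CPM in the WT clone and 43.6 CPM in the parental line of experiment 1, and at 15.7 and 72.6 CPM in STAG2 KO 5 and 24. Experiment 2 had 65.3 and 61.5 CPM in the WT clone and 40.4 CPM in the parental line, and 50, 28.2 and 33 CPM in STAG2 KO 3, 5 and 2. The groups overlapped in both experiments, and MMP2 was not called in STAG2 KO cells (log2 fold change -0.52, SE 0.332, adjusted p 0.36, edgeR). After knockdown it was at 219, 231 and 225 normalized reads in the control libraries and 176, 175 and 173 in the siSTAG2 libraries. The groups were apart, and MMP2 fell (log2 fold change -0.36, SE 0.0977, adjusted p 0.00889, limma). EZH2 KO libraries had 18.6, 35.8 and 16.2 CPM, all below the controls of experiment 2, and MMP2 fell (log2 fold change -1.23, SE 0.333, adjusted p 0.0285, edgeR). That call was lost without EZH2 KO 1, EZH2 KO 3, WT clone 1 or WT clone 2 (adjusted p 0.0892 to 0.0991), and by library size alone (-1.05; adjusted p 0.00314 to 0.0573 over other settings). In SUZ12 KO libraries it was at 30.1, 34.2 and 21 CPM, below the controls and not called with edgeR (log2 fold change -0.95, SE 0.33, adjusted p 0.0626; 0.0146 to 0.142 over other settings, called with DESeq2, with no filter and with this KO and its controls alone). In experiment 3 it was at 109 CPM in the WT clone and 94.7 CPM in the parental line and at 157, 257 and 166 CPM in the libraries labelled STAG1 KO 1, 5 and 7 (log2 fold change 0.91, SE 0.231, adjusted p 0.0769), with the groups apart and no call with edgeR (adjusted p 0.00146 to 0.0804 over other settings, called with DESeq2 and with no filter). MMP2 was higher in the WT clone than in parental cells (log2 fold change 0.51, SE 0.0945, adjusted p 0.0257, edgeR), a call lost without WT clone a, WT clone b, WT clone 1, WT clone 2, the parental line of experiment 1 or the parental line of experiment 2 (adjusted p 0.0561 to 0.12), and elsewhere (adjusted p 0.00071 to 1 over other settings, not called with no experiment term and with WT clone a and b summed).

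Membrane-type MMPs sit at the cell surface, by a transmembrane segment in MMP14, MMP15, MMP16 and MMP24 and by a lipid anchor in MMP17 and MMP25. MMP14 cuts fibrillar collagen and activates proMMP2. It was at 244 and 241 CPM in the WT clone and 152 CPM in the parental line of experiment 1 and at 79.7 and 78.4 CPM in STAG2 KO 5 and 24. In experiment 2 it was at 169.6 and 145 CPM in the WT clone and 127 CPM in the parental line and at 53.2, 71.5 and 49.1 CPM in STAG2 KO 3, 5 and 2. The highest KO library was below the lowest control in each experiment, and the 5 KO libraries spanned 49.1 to 79.7 CPM. MMP14 fell in STAG2 KO cells (log2 fold change -1.38, SE 0.158, adjusted p 0.000363, edgeR), with -1.44 in experiment 1 alone and -1.35 in experiment 2 alone, and was called in each fit that leaves out a library. After knockdown it was at 285, 240.1 and 303 normalized reads in the control libraries and 221, 185 and 163 in the siSTAG2 libraries. The groups were apart, and MMP14 fell (log2 fold change -0.54, SE 0.112, adjusted p 0.000847, limma). SUZ12 KO libraries had 93.5, 112 and 94.6 CPM, below the controls, and MMP14 fell (log2 fold change -0.53, SE 0.173, adjusted p 0.0486, edgeR), a call lost without EZH2 KO 1, STAG2 KO 3, SUZ12 KO 1, SUZ12 KO 2, SUZ12 KO 3, WT clone 1 or WT clone 2 (adjusted p 0.0546 to 0.163). Scaled by library size alone this was -0.35, not called (adjusted p 0.021 to 0.286 over other settings). EZH2 KO libraries had 128, 148 and 116 CPM, overlapping the controls (log2 fold change -0.16, adjusted p 0.572, and 0.01 scaled by library size alone). Experiment 3 had it at 217 CPM in the WT clone and 224 CPM in the parental line and at 222, 291 and 253 CPM in the libraries labelled STAG1 KO 1, 5 and 7, overlapping (log2 fold change 0.20, adjusted p 0.358).

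The promoter of MMP14 is shown because it was the most abundant protease called lower in STAG2 KO cells. GGAAGGAA was found in 3.06% of all 35116 promoters and in 2 of the 26 members, MMP14 and TIMP1. In MMP14 (chr14:22836335-22836584, plus strand, RefSeq on GRCh38.p14) the capitals mark it on the other strand, 140 bases before the start.
MMP14: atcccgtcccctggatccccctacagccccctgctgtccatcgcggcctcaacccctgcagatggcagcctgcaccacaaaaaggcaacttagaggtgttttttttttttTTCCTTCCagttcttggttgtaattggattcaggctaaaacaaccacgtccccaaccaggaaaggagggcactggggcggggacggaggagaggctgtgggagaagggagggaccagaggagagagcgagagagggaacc
The window holds 7 CpG dinucleotides.

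MMP24 was near the floor in the controls of experiment 2, with 1 and 2 counts in the WT clone and 3 in parental cells (0.0538 and 0.122 CPM in the clone, 0.159 CPM in parental cells). It had 11, 13 and 26 counts in EZH2 KO libraries and 27, 12 and 25 in SUZ12 KO libraries (0.525, 0.712 and 1.24 CPM, and 1.29, 0.529 and 1.34 CPM). All KO libraries were above all controls. MMP24 rose in EZH2 KO cells (log2 fold change 2.83, SE 0.61, adjusted p 0.00925, edgeR), with a ratio of pooled CPM of 7.47 (95% counting interval 3.2 to 21.3) and the call lost without WT clone 1 (adjusted p 0.0577). It rose in SUZ12 KO cells (log2 fold change 3.18, SE 0.607, adjusted p 0.00355, edgeR), with a ratio of 9.24 (4.02 to 26.1), and was called there with any library left out.

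MMP17 was at 6.3 and 4.5 CPM in the WT clone and 5.61 CPM in the parental line of experiment 2, at 9.07, 18 and 14.1 CPM in EZH2 KO 1, 2 and 3, and at 17.5, 12.7 and 14.8 CPM in SUZ12 KO 1, 2 and 3. All PRC2 KO libraries were above these controls. It rose in EZH2 KO cells (log2 fold change 1.34, SE 0.314, adjusted p 0.0147, edgeR), a call lost without EZH2 KO 2 (adjusted p 0.0585), WT clone 2 (adjusted p 0.0759) or the parental line of experiment 2 (adjusted p 0.0516), and with the WT clone as the only control (adjusted p 0.00059 to 0.0516 over other settings). It rose in SUZ12 KO cells (log2 fold change 1.47, SE 0.315, adjusted p 0.00671, edgeR), with any library left out. In STAG2 KO cells it was at 20.2 and 13.4 CPM in experiment 1, beside 11.5 and 9.46 CPM in the WT clone and 9.71 CPM in the parental line, and at 6.87, 13.3 and 9.7 CPM in experiment 2. The groups were apart in each experiment, and MMP17 rose (log2 fold change 0.80, SE 0.207, adjusted p 0.0286, edgeR). This call was lost without STAG2 KO 5 of experiment 1, STAG2 KO 2, WT clone b, WT clone 1, WT clone 2, the parental line of experiment 1 or the parental line of experiment 2 (adjusted p 0.0532 to 0.0913), and elsewhere (adjusted p 0.00275 to 0.191 over other settings, not called with the WT clone as the only control, in experiment 1 alone, in experiment 2 alone, scaled by library size alone, with no experiment term and with WT clone a and b summed). After knockdown MMP17 was at 9.272 to 9.985 normalized reads against 6.672 to 16.67 in the controls, overlapping and not called.

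MMP16, which activates proMMP2 like MMP14, was at 12.4 and 14.7 CPM in the WT clone and 14 CPM in the parental line of experiment 1 and at 28.1 and 41.6 CPM in STAG2 KO 5 and 24. Experiment 2 had 16.2 and 18.9 CPM in the WT clone and 11.7 CPM in the parental line and 11.6, 26.5 and 38.8 CPM in STAG2 KO 3, 5 and 2. STAG2 KO 3 of experiment 2 was below its controls while the other KO libraries were above theirs. MMP16 rose in STAG2 KO cells (log2 fold change 1.0, SE 0.281, adjusted p 0.0395, edgeR), a call that stayed without STAG2 KO 3 or STAG2 KO 5 of experiment 2 and was lost without any of the other 9 libraries: STAG2 KO 24, STAG2 KO 5 of experiment 1, STAG2 KO 2, WT clone a, WT clone b, WT clone 1, WT clone 2, the parental line of experiment 1 or the parental line of experiment 2 (adjusted p 0.0503 to 0.125). The call was also lost elsewhere (adjusted p 0.00771 to 0.345 over other settings, not called with the WT clone as the only control, in experiment 2 alone and with WT clone a and b summed). After knockdown it rose from 70.5, 35.4 and 47.9 normalized reads in the control libraries to 98.7, 106 and 88.9 in the siSTAG2 libraries, with the groups apart (log2 fold change 0.97, SE 0.192, adjusted p 0.000573, limma). MMP25, a leukocyte MMP, was at 2.04 and 1.96 CPM in the WT clone and 0.939 CPM in the parental line of experiment 1 and at 0.176 and 0.114 CPM in STAG2 KO 5 and 24. In experiment 2 it was at 2.53 and 1.52 CPM in the WT clone and 0.371 CPM in the parental line and at 0.26, 0.315 and 0.818 CPM in STAG2 KO 3, 5 and 2, so that the parental line was within the range of the KO libraries. MMP25 fell in STAG2 KO cells (log2 fold change -2.31, SE 0.603, adjusted p 0.0291, edgeR), a call lost without STAG2 KO 24, STAG2 KO 5 of experiment 1, STAG2 KO 3, WT clone a, WT clone b, WT clone 1 or WT clone 2 (adjusted p 0.0503 to 0.0964), and elsewhere (adjusted p 0.00349 to 0.238 over other settings, not called in experiment 2 alone and with WT clone a and b summed). In experiment 3 it was at 0.558 and 0.691 CPM in the controls and at 5.12, 6.43 and 1.95 CPM in the libraries labelled STAG1 KO 1, 5 and 7, all above the controls and not called with edgeR (log2 fold change 2.82, SE 0.607, adjusted p 0.0556; 0.000511 to 0.0553 over other settings, called with DESeq2 and with no filter). EZH2 KO libraries had 4.15, 6.57 and 4.15 CPM of MMP25, above their controls, not called with edgeR (log2 fold change 1.76, adjusted p 0.0671; 0.0232 to 0.149 over other settings, called with DESeq2 and scaled by library size alone). After knockdown MMP25 was at 8.694 to 22.25 normalized reads against 12.5 to 15.75 in the controls, overlapping and not called.

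**Figure D3:**
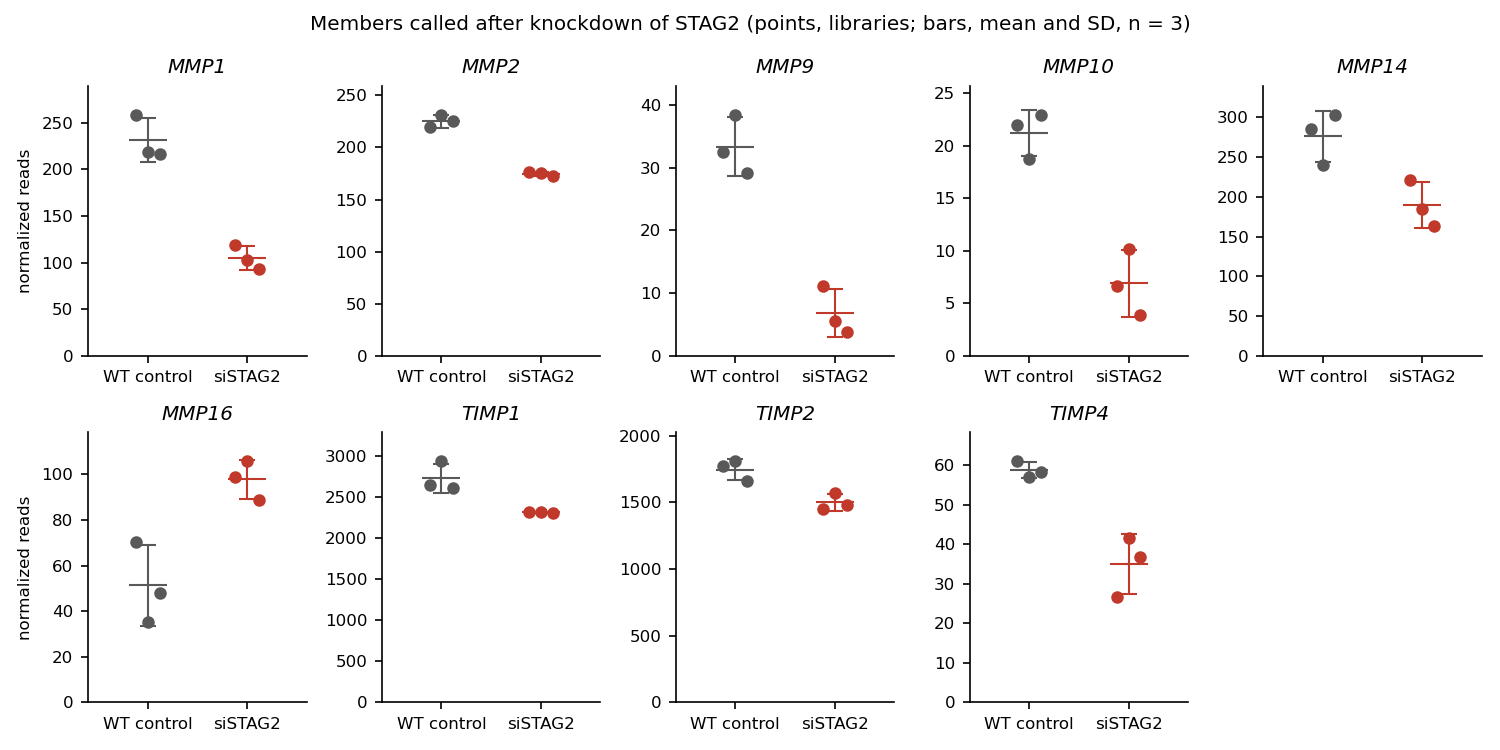
Normalized reads (y) of the 9 members called after knockdown of STAG2, in 3 control and 3 siSTAG2 libraries (x). Points are libraries, and bars the mean and SD (n = 3). In each panel the groups do not overlap, and MMP16 alone is higher with siSTAG2.

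Of the remaining MMPs, stromelysin 3 (MMP11) was called in no comparison (log2 fold changes -0.73 to 0.66). In STAG1 KO cells DESeq2 called it, as did experiment 1 alone in STAG2 KO cells, both lower. MMP19, a broad secreted MMP, was at 1.9 and 1.92 CPM in the WT clone and parental line of experiment 3 and at 4.66, 7.95 and 5.63 CPM in the libraries labelled STAG1 KO 1, 5 and 7. All were above the controls, and MMP19 rose in STAG1 KO cells (log2 fold change 1.66, SE 0.32, adjusted p 0.0451, edgeR), a call lost without STAG1 KO 5, STAG1 KO 7, the WT clone of experiment 3 or the parental line of experiment 3 (adjusted p 0.0742 to 0.333).

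Of the ADAMTS genes, 7 cut the large proteoglycans aggrecan and versican: ADAMTS1, ADAMTS4, ADAMTS5, ADAMTS8, ADAMTS9, ADAMTS15 and ADAMTS20. ADAMTS15 was at 0.817 and 1.11 CPM in the WT clone and 1.3 CPM in the parental line of experiment 1, and at 0.176 and 0 CPM in STAG2 KO 5 and 24. Experiment 2 had 2.26 and 2.31 CPM in the WT clone and 2.81 CPM in the parental line, and 0.156, 0.525 and 0.164 CPM in STAG2 KO 3, 5 and 2. All KO libraries, with 0 to 10 counts, were below all controls, with 14 to 53. ADAMTS15 fell in STAG2 KO cells (log2 fold change -3.23, SE 0.514, adjusted p 0.00244, edgeR) with any library left out. ADAMTS1 was at 13.6 and 14.2 CPM in the WT clone and 23.2 CPM in the parental line of experiment 1, and at 47.7 and 61 CPM in STAG2 KO 5 and 24. In experiment 2 it was at 29.2 and 28.3 CPM in the WT clone and 21.6 CPM in the parental line, and at 40.2, 29.2 and 48.9 CPM in STAG2 KO 3, 5 and 2, where STAG2 KO 5 was at the level of WT clone 1 and the other KO libraries were above the controls. ADAMTS1 rose in STAG2 KO cells (log2 fold change 1.08, SE 0.242, adjusted p 0.0144, edgeR) with any library left out, by 1.66 in experiment 1 alone and, not called, by 0.57 in experiment 2 alone. The call was lost elsewhere (adjusted p 0.000739 to 0.176 over other settings, not called with the WT clone as the only control and in experiment 2 alone). After knockdown ADAMTS1 was at 28.98 to 37.72 normalized reads against 27.55 to 41.67 in the controls, overlapping and not called. Experiment 3 had it at 18 CPM in the WT clone and 16.2 CPM in the parental line and at 11.2, 7.55 and 6.73 CPM in the libraries labelled STAG1 KO 1, 5 and 7, all below the controls and not called with edgeR (log2 fold change -1.02, SE 0.253, adjusted p 0.074; 0.00981 to 0.0649 over other settings, called with DESeq2).

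ADAMTS4, aggrecanase 1, was at 27.9 and 27.5 CPM in the WT clone and 26.4 CPM in the parental line of experiment 1, and at 50.8 and 35.8 CPM in STAG2 KO 5 and 24. Experiment 2 had 20.7 and 21.2 CPM in the WT clone and 25.3 CPM in the parental line, at 26.6, 35.1 and 29.8 CPM in STAG2 KO 3, 5 and 2, and 11.8, 14.4 and 17.1 CPM in SUZ12 KO 1, 2 and 3. STAG2 KO libraries were above and SUZ12 KO libraries below the controls. ADAMTS4 rose in STAG2 KO cells (log2 fold change 0.55, SE 0.126, adjusted p 0.0161, edgeR), a call lost without STAG2 KO 5 of experiment 1 (adjusted p 0.0531), WT clone 1 (adjusted p 0.0667) or WT clone 2 (adjusted p 0.0614), and elsewhere (adjusted p 0.00135 to 0.195 over other settings, not called in experiment 2 alone and with no experiment term). It fell in SUZ12 KO cells (log2 fold change -0.61, SE 0.19, adjusted p 0.0399, edgeR), a call lost without EZH2 KO 1, SUZ12 KO 1, SUZ12 KO 2, WT clone 1, WT clone 2 or the parental line of experiment 2 (adjusted p 0.0558 to 0.144). Scaled by library size alone this was -0.44 (adjusted p 0.0116 to 0.191 over other settings, not called with the WT clone as the only control and scaled by library size alone). After knockdown ADAMTS4 was at 286.2 to 315.9 normalized reads against 235.4 to 269.6 in the controls, apart from them and not called.

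The procollagen N-proteinases ADAMTS2, ADAMTS3 and ADAMTS14 trim the amino end of fibrillar procollagens. ADAMTS14 was at 1.28 and 1.43 CPM in the WT clone and 0.887 CPM in the parental line of experiment 1, and at 0.0588 and 0 CPM in STAG2 KO 5 and 24. In experiment 2 it was at 1.02 and 1.22 CPM in the WT clone and 1.01 CPM in the parental line, and at 0.156, 0.525 and 0.0545 CPM in STAG2 KO 3, 5 and 2. All KO libraries, with 0 to 10 counts, were below all controls. ADAMTS14 fell in STAG2 KO cells (log2 fold change -2.92, SE 0.661, adjusted p 0.0147, edgeR), at -3.93 without STAG2 KO 5 of experiment 2, a call lost without STAG2 KO 5 of experiment 1 (adjusted p 0.0522), and in experiment 2 alone (-2.11; adjusted p 0.000446 to 0.134 over other settings). ADAMTS7 and ADAMTS12 cut cartilage oligomeric matrix protein. ADAMTS7 was at 1.28 and 1.43 CPM in the WT clone and parental line of experiment 3, and at 6.09, 13.2 and 6.31 CPM in the libraries labelled STAG1 KO 1, 5 and 7. All were above the controls, and ADAMTS7 rose in STAG1 KO cells (log2 fold change 2.64, SE 0.456, adjusted p 0.0366, edgeR), a call lost without STAG1 KO 7 (adjusted p 0.0561), the WT clone of experiment 3 (adjusted p 0.209) or the parental line of experiment 3 (adjusted p 0.292). ADAMTS12 was at 0.35 and 0.898 CPM in the WT clone and 0.261 CPM in parental cells of experiment 1. The WT clone had 1.67 and 2.13 CPM and parental cells 0.159 CPM in experiment 2, with 1.73 CPM and 0.4932 CPM in experiment 3. The WT clone was the higher in each experiment, though WT clone a of experiment 1 was below the parental line of experiment 3, and ADAMTS12 was called (log2 fold change 2.17, SE 0.469, adjusted p 0.0443, edgeR). The call was lost without WT clone b, WT clone 1, WT clone 2, the WT clone of experiment 3, the parental line of experiment 2 or the parental line of experiment 3 (adjusted p 0.052 to 0.178), and elsewhere (adjusted p 0.00458 to 0.796 over other settings, not called with no experiment term and with WT clone a and b summed).

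ADAMTS16 and ADAMTS17 moved in the PRC2 knockouts. ADAMTS17, tied to short stature and eye disorders when mutated, had 3 and 3 counts in the WT clone and 0 in parental cells of experiment 2. It had 61, 116 and 62 counts in SUZ12 KO and 4, 3 and 25 in EZH2 KO libraries. In CPM these were 2.91, 5.11 and 3.33 for SUZ12 KO and 0.191, 0.164 and 1.19 for EZH2 KO, against 0.161 and 0.182 in the WT clone. SUZ12 KO libraries were apart from the controls, while EZH2 KO 1 and 2 were near the level of the WT clone and EZH2 KO 3 above it. ADAMTS17 rose in SUZ12 KO cells (log2 fold change 5.02, SE 0.997, adjusted p 0.00452, edgeR) with any library left out, at a ratio of pooled CPM of 34.5 (95% counting interval 15.6 to 94.9). In EZH2 KO cells the ratio was 4.78 (1.97 to 14.0), not called (log2 fold change 2.15, SE 1.01, adjusted p 0.176). The difference between the PRC2 knockouts was not called for ADAMTS17 (log2 difference -2.87, adjusted p 0.999). ADAMTS16, which can cut fibronectin, was at 2.26 and 1.76 CPM in the WT clone and 0.635 CPM in the parental line of experiment 2, at 0.334, 0.438 and 0.334 CPM in EZH2 KO 1, 2 and 3, and at 0.0478, 0.176 and 0.161 CPM in SUZ12 KO 1, 2 and 3. All PRC2 KO libraries, with 1 to 8 counts, were below the controls. It fell in SUZ12 KO cells (log2 fold change -3.51, SE 0.6249, adjusted p 0.00237, edgeR) with any library left out, and in EZH2 KO cells (log2 fold change -2.04, SE 0.56, adjusted p 0.0299, edgeR), a call lost without EZH2 KO 1, EZH2 KO 2, EZH2 KO 3, WT clone 1 or WT clone 2 (adjusted p 0.0694 to 0.127).

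ADAMTS13, which cuts von Willebrand factor, was called in no comparison. EZH2 KO and SUZ12 KO libraries, at 1.72, 4.1 and 2.34 and at 5.21, 4.89 and 1.5 CPM, were all above the controls of experiment 2, with log2 fold changes of 1.96 (adjusted p 0.221) and 2.48 (adjusted p 0.113). With only the KO and its controls fitted both were called (for SUZ12 KO, adjusted p 0.00713 to 0.24 over other settings, called with DESeq2 and with this KO and its controls alone), and in STAG2 KO cells ADAMTS13 was called lower in experiment 1 alone (-3.31). ADAMTS6 and ADAMTS10, tied to fibrillin microfibrils, were not called either, though DESeq2 called ADAMTS10 higher in EZH2 KO and SUZ12 KO cells (for SUZ12 KO, adjusted p 0.0429 to 0.233 over other settings, called with DESeq2). ADAMTS6 had a log2 fold change of -1.71 in STAG2 KO cells (adjusted p 0.18; 0.0228 to 0.654 over other settings, called in experiment 1 alone).

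TIMP4, the least abundant inhibitor here, had the largest log2 fold change of the inhibitors tested in STAG2 KO, siSTAG2, STAG1 KO and SUZ12 KO cells, though not in EZH2 KO cells or the pairs. It was at 10.2 and 11.3 CPM in the WT clone and 5.17 CPM in the parental line of experiment 1 and at 1.24 and 0.968 CPM in STAG2 KO 5 and 24. Experiment 2 had 13.2 and 13.1 CPM in the WT clone and 11 CPM in the parental line and 2.24, 2.1 and 4.09 CPM in STAG2 KO 3, 5 and 2. All KO libraries were below all controls, and TIMP4 fell in STAG2 KO cells (log2 fold change -2.50, SE 0.316, adjusted p 0.000666, edgeR) with any library left out. After knockdown it fell from 61, 57.1 and 58.3 normalized reads in the control libraries to 26.6, 41.7 and 36.7 in the siSTAG2 libraries, with the groups apart (log2 fold change -0.75, SE 0.201, adjusted p 0.00836, limma), a call lost without siSTAG2 1 (adjusted p 0.0528). In experiment 3 it was at 4.36 CPM in the WT clone and 6.17 CPM in the parental line and at 31, 45.9 and 22.6 CPM in the libraries labelled STAG1 KO 1, 5 and 7. These were all above the controls, the library labelled STAG1 KO 1 included, and TIMP4 rose (log2 fold change 2.64, SE 0.358, adjusted p 0.0257, edgeR), a call lost without the WT clone of experiment 3 (adjusted p 0.151) or the parental line of experiment 3 (adjusted p 0.239). SUZ12 KO libraries had 1.15, 2.03 and 2.68 CPM, below the controls of experiment 2, and TIMP4 fell (log2 fold change -2.65, SE 0.45, adjusted p 0.00181, edgeR) with any library left out. EZH2 KO libraries had 6.06, 8.15 and 2.91 CPM, also below the controls, and the difference was not called with edgeR (log2 fold change -1.11, SE 0.424, adjusted p 0.102; 0.0435 to 0.159 over other settings, called with DESeq2).

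TIMP1 and TIMP2 went in opposite directions in the PRC2 knockouts. TIMP1 was at 151 and 124 CPM in the WT clone and 165 CPM in the parental line of experiment 2, at 358, 332 and 477 CPM in EZH2 KO 1, 2 and 3, and at 196, 265 and 388 CPM in SUZ12 KO 1, 2 and 3. All PRC2 KO libraries were above the controls. TIMP1 rose in EZH2 KO cells (log2 fold change 1.42, SE 0.281, adjusted p 0.00596, edgeR) with any library left out, and in SUZ12 KO cells (log2 fold change 0.97, SE 0.278, adjusted p 0.0289, edgeR), a call lost without SUZ12 KO 2, SUZ12 KO 3, WT clone 1, WT clone 2 or the parental line of experiment 2 (adjusted p 0.0563 to 0.118), and with the WT clone as the only control (adjusted p 0.00548 to 0.0563 over other settings). TIMP2, the partner of MMP14, was at 151 and 143 CPM in the WT clone and 136 CPM in the parental line, at 39.9, 73.3 and 47.3 CPM in EZH2 KO 1, 2 and 3, and at 59.6, 51.9 and 34.4 CPM in SUZ12 KO 1, 2 and 3. All PRC2 KO libraries were below the controls. TIMP2 fell in EZH2 KO cells (log2 fold change -1.41, SE 0.282, adjusted p 0.00647, edgeR) and in SUZ12 KO cells (log2 fold change -1.54, SE 0.283, adjusted p 0.00293, edgeR), each with any library left out. The promoter of TIMP1 is shown because its median per length was the highest. The capitals mark GGAAGGAA, 248 bases before the start (chrX:47582186-47582435, plus strand, RefSeq on GRCh38.p14), in a window with 12 CpG dinucleotides.
TIMP1: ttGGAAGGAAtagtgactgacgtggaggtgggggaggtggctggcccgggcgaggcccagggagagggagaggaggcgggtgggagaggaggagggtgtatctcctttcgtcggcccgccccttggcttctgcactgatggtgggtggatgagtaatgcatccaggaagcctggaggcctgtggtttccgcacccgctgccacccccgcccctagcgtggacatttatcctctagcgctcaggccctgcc

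In STAG2 KO cells TIMP1 and TIMP2 were not called. TIMP1 was at 148 and 141 CPM in the WT clone and 112 CPM in the parental line of experiment 1 and at 119 and 157 CPM in STAG2 KO 5 and 24, which overlapped, and at 90.2, 46 and 78.9 CPM in the KO libraries of experiment 2, below the controls there (log2 fold change -0.54, SE 0.232, adjusted p 0.161, edgeR). Its value was 0.03 in experiment 1 alone and -1.04 in experiment 2 alone. TIMP2 was at 153 and 154 CPM in the WT clone and 149 CPM in the parental line of experiment 1, at 142 and 154 CPM in the KO libraries there and at 124, 70.5 and 130.0 CPM in those of experiment 2 (log2 fold change -0.24, SE 0.147, adjusted p 0.333, edgeR). STAG2 KO 5 of experiment 2 was the lowest for both genes. After knockdown TIMP1 was at 2649, 2939 and 2609.6 normalized reads in the control libraries and 2319, 2326 and 2309.8 in the siSTAG2 libraries, and TIMP1 fell (log2 fold change -0.23, SE 0.058, adjusted p 0.00448, limma). TIMP2 was at 1768, 1806 and 1656 normalized reads in the control libraries and 1447, 1572 and 1478 in the siSTAG2 libraries, and TIMP2 fell (log2 fold change -0.22, SE 0.0599, adjusted p 0.0101, limma). The groups were apart for both, and both were called with any library left out. In experiment 3, TIMP1 was at 220.5 CPM in the WT clone and 162 CPM in the parental line and at 343, 321 and 495 CPM in the libraries labelled STAG1 KO 1, 5 and 7, all above the controls and not called with edgeR (log2 fold change 1.01, SE 0.234, adjusted p 0.0641; 0.000212 to 0.0705 over other settings, called with DESeq2 and with no filter).

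TIMP3, which stays bound to the matrix, was called in no comparison with edgeR and all libraries. It was at 184 and 197 CPM in the WT clone and 168 CPM in the parental line of experiment 1, and at 142 and 118 CPM in STAG2 KO 5 and 24. In experiment 2 it was at 150.2 and 151 CPM in the WT clone and 122 CPM in the parental line, at 145, 81.4 and 58.2 CPM in STAG2 KO 3, 5 and 2, at 226, 191 and 184 CPM in EZH2 KO 1, 2 and 3, and at 240.2, 214 and 209 CPM in SUZ12 KO 1, 2 and 3. All libraries of both PRC2 groups were above the controls. STAG2 KO libraries were below the controls in experiment 1 and overlapped them in experiment 2. The log2 fold changes were -0.54 in STAG2 KO (adjusted p 0.104), 0.52 in EZH2 KO (adjusted p 0.203) and 0.67 in SUZ12 KO cells (adjusted p 0.0905). Other settings called it lower in STAG2 KO (adjusted p 0.037 to 0.306 over other settings, called with DESeq2 and in experiment 1 alone) and higher in EZH2 KO (adjusted p 0.0256 to 0.429 over other settings, called with this KO and its controls alone) and SUZ12 KO cells (adjusted p 0.00305 to 0.245 over other settings, called scaled by library size alone and with this KO and its controls alone). Experiment 3 had it at 184 CPM in the WT clone and 161 CPM in the parental line and at 140.2, 64.8 and 103 CPM in the libraries labelled STAG1 KO 1, 5 and 7, all below the controls (log2 fold change -0.76, SE 0.298, adjusted p 0.185).

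**Figure D4:**
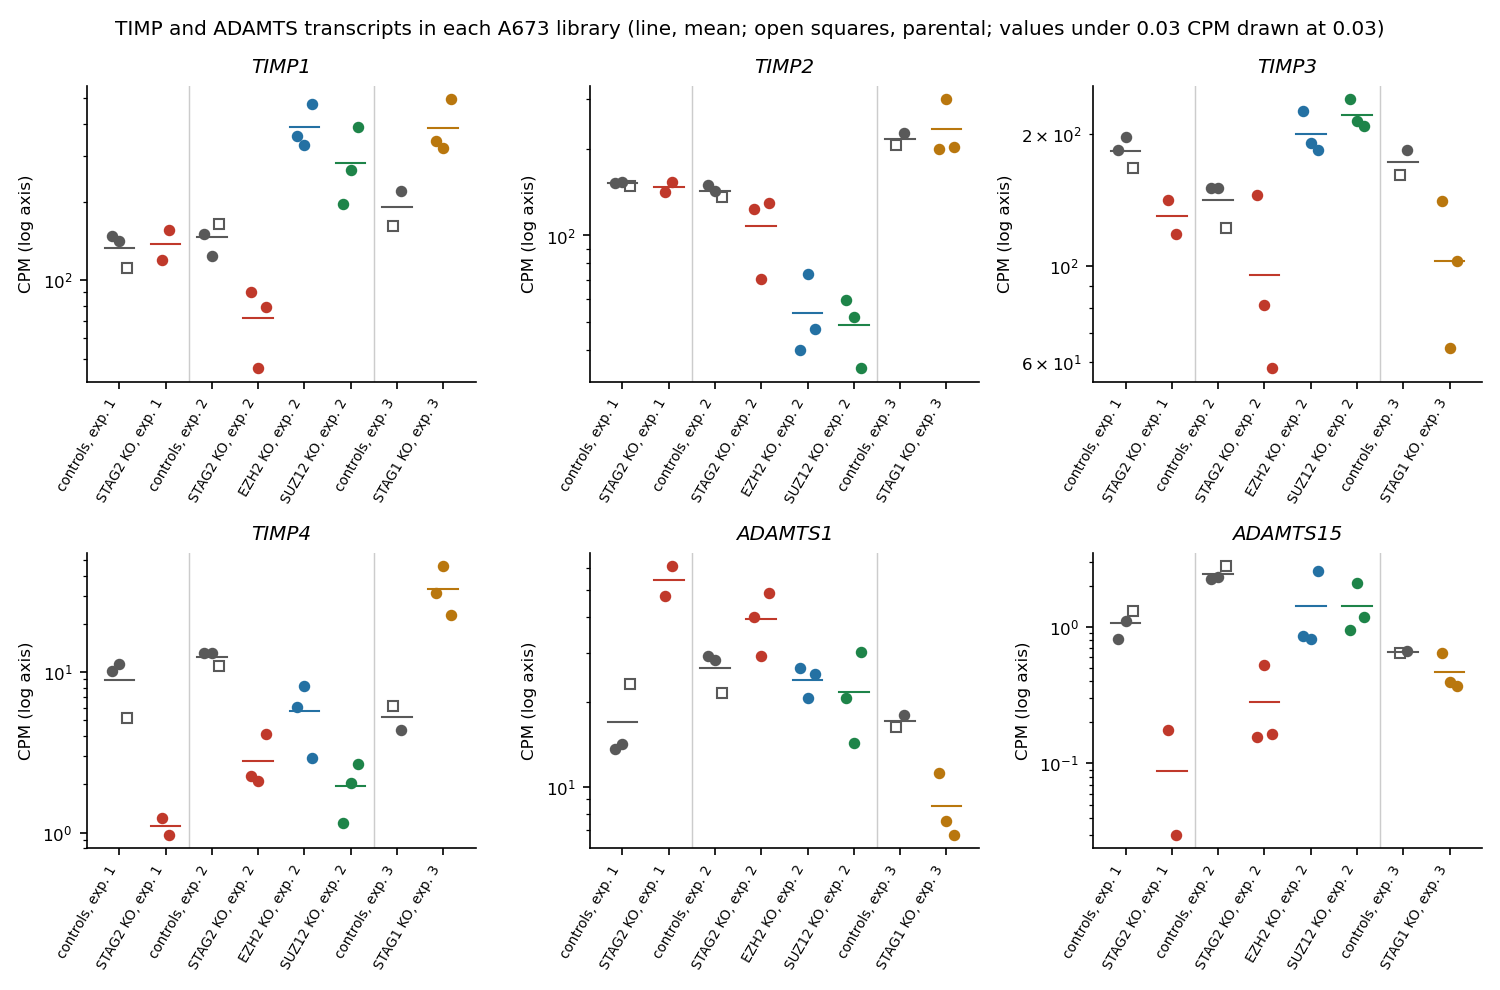
CPM on log axes (y) of TIMP1, TIMP2, TIMP3, TIMP4, ADAMTS1 and ADAMTS15 in each A673 library, by group and experiment (x). Points are libraries, open squares parental cells and lines group means. TIMP4 is below its controls in all STAG2 KO libraries and above them in the libraries labelled STAG1 KO, while TIMP1 is above and TIMP2 below the controls in the PRC2 knockouts.

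For each member the log2 fold change of STAG1 KO was subtracted from that of STAG2 KO and the difference tested with edgeR. MMP9 (-5.86, adjusted p 0.000754), TIMP4 (-5.18, adjusted p 0.000131) and MMP14 (-1.63, adjusted p 0.00213) had a lower effect of STAG2 KO with any library left out. MMP25 (-5.17, adjusted p 0.00971) was called unless the parental line of experiment 3 (adjusted p 0.096) or the WT clone of experiment 3 (adjusted p 0.0862) was left out. ADAMTS1 had a higher effect of STAG2 KO (2.06, adjusted p 0.0126), lost without the WT clone of experiment 3 (adjusted p 0.0681) or the parental line of experiment 3 (adjusted p 0.0639). MMP10 (-4.03, adjusted p 0.0477) stayed called only without STAG2 KO 5 of experiment 2, and without each of the other 15 libraries of experiments 1 to 3 its adjusted p was 0.0539 to 0.292. MMP17 (1.25, adjusted p 0.0404) stayed called without STAG2 KO 24 of experiment 1 or STAG2 KO 3 or STAG2 KO 5 of experiment 2, and each of the other 13 libraries ended the call (adjusted p 0.0508 to 0.216). TIMP1 (-1.59, adjusted p 0.0412) stayed called without STAG2 KO 24 or the parental line of experiment 1 or STAG2 KO 5 of experiment 2, and each of the other 13 ended the call (adjusted p 0.0525 to 0.273). The calls of MMP10 and MMP17 were also lost scaled by library size alone, that of MMP17 with no filter on low counts, and those of MMP10, MMP17 and TIMP1 with WT clone a and b summed. MMP1, called in STAG1 KO and not in STAG2 KO cells, had a difference of -4.35 that was not called (adjusted p 0.0836; called without STAG2 KO 24 of experiment 1 or STAG2 KO 5 of experiment 2).

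In SK-N-MC cells, with 1 library per arm and so no replicate check, 30 members were compared, and 15 differed by more than 2-fold: 6 were higher and 9 lower without STAG2. Of all 16413 genes compared, 21.6% did so, 1669 higher and 1869 lower. The median log2 difference without minus with STAG2 was -0.19 over the members and -0.01 over all genes. Members of the chromosome 11 cluster were among the lowest without STAG2. MMP8 had 80 counts with and 0 without STAG2, at least 24.7-fold lower against a floor of 3 counts. MMP10 went from 50 to 2 counts (log2 difference -3.61, 95% counting interval -7.62 to -2.61). MMP13 went from 41 to 3 counts (-3.01, -6.00 to -2.01), and MMP1 from 174 to 13 (-3.45, -4.57 to -2.82). TIMP1 was at 203 CPM with and 58.5 CPM without STAG2 (log2 difference -1.79), and TIMP2 at 59.2 CPM with and 135 CPM without STAG2 (1.19). MMP14 was at 137 CPM with and 173 CPM without STAG2, under 2-fold. MMP9 was at 2.55 CPM with and 0.982 CPM without STAG2 (-1.32), MMP25 at 5.07 CPM with and 0.851 CPM without STAG2 (-2.49), and MMP17 at 1.52 CPM with and 11.4 CPM without STAG2 (2.86).

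In A4573 cells 30 members were compared, again with 1 library per arm, and 15 differed by more than 2-fold, 1 higher and 14 lower without STAG2. Of all 16124 genes, 21.8% did so, 1252 higher and 2271 lower, and the median log2 difference was -0.80 over the members and 0.00 over all genes. Without and with STAG2, Ewing sarcoma markers summed to 1574 and 2611 CPM and fibroblast markers to 23.47 and 40.27 CPM. Epithelial markers summed to 0.5975 and 2.037 CPM and endothelial markers to 0.863 and 1.273 CPM. The part of these shifts in the differences was not tested. The higher member, MMP24, had 9 counts without and 1 with STAG2 (log2 difference 1.92, 95% counting interval 0.38 to 8.68). ADAMTS4 was at 19.1 CPM with and 4.15 CPM without STAG2 (log2 difference -2.19), ADAMTS1 at 101 CPM with and 35.8 CPM without STAG2 (-1.50) and ADAMTS13 at 54.5 CPM with and 18.9 CPM without STAG2 (-1.53). TIMP3 was at 381 CPM with and 167 CPM without STAG2 (-1.19), the largest fall in CPM of the members. MMP14 was far lower in A4573 than in the other lines, at 2.93 CPM with and 0.763 CPM without STAG2, or 92 and 23 counts (-1.85, -2.67 to -1.27). MMP9, MMP25, ADAMTS6 and ADAMTS13 were lower without STAG2 by more than 2-fold in both lines, and MMP24 higher. MMP24 had 20 counts without and 6 with STAG2 in SK-N-MC cells, and MMP9 had 13 and 43 in A4573 cells. ADAMTS1, ADAMTS17 and MMP17 were higher in SK-N-MC and lower in A4573 cells without STAG2. The share of all genes that moved alike in both lines was not counted, so these shared directions have no background to be read against.

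**Figure D5:**
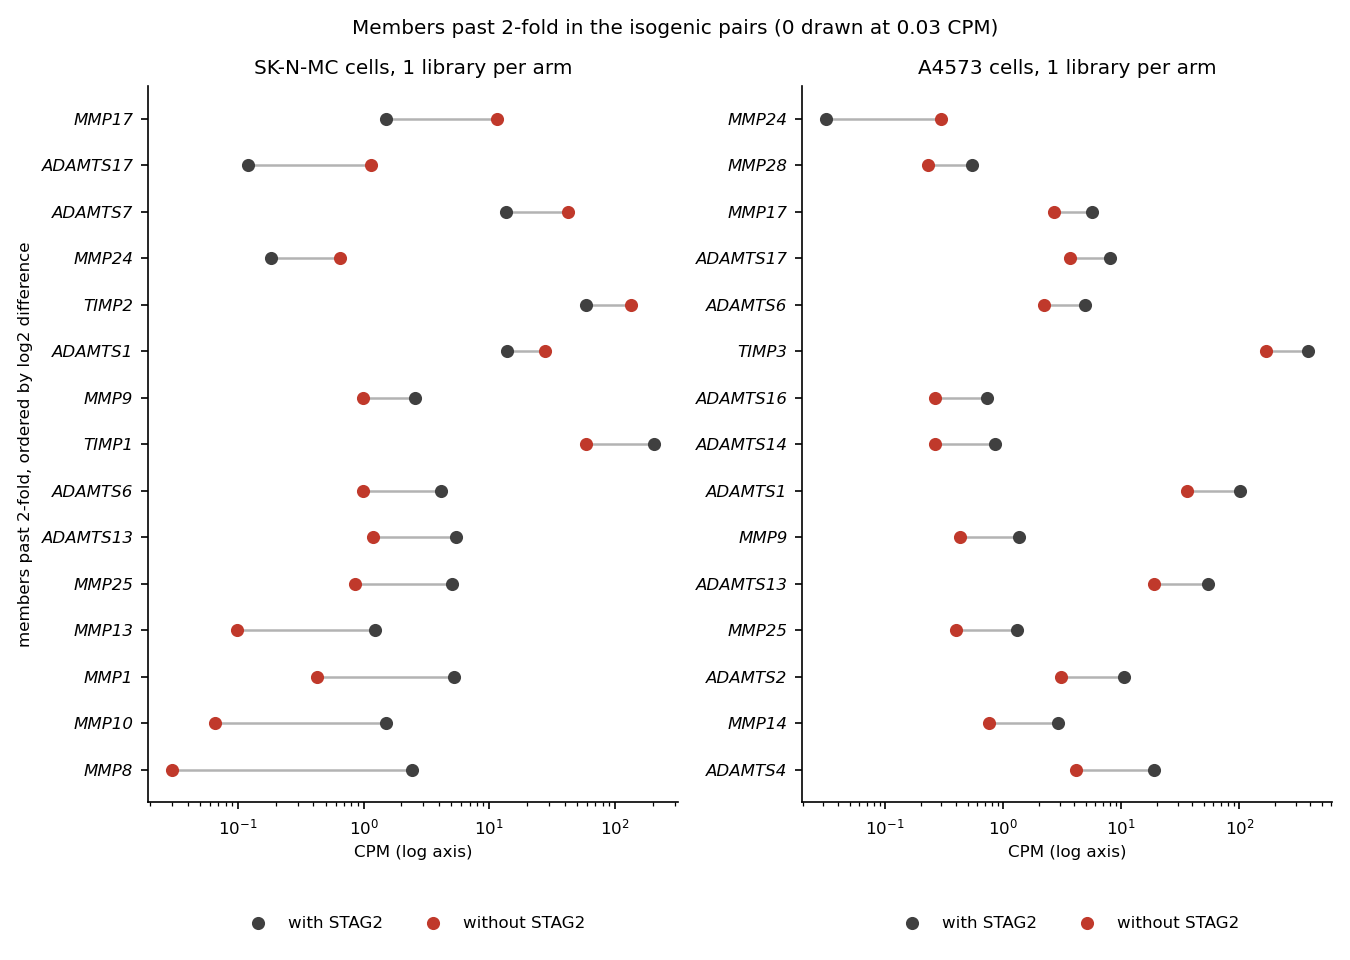
CPM on a log axis (x) of the 15 members past 2-fold in each pair (y, by log2 difference), with and without STAG2, 1 library per arm. In SK-N-MC cells 9 are lower without STAG2, and in A4573 cells 14 are. A level of 0 is drawn at 0.03 CPM.

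Other genes of the pathway were followed in 5 lists with 56 genes: 9 activators and cofactors of zymogens (such as furin and the plasminogen activators), 12 other inhibitors and clearance receptors, 8 ADAMTS-like proteins and enzymes of their secretion, 9 ADAM sheddases and 18 substrates. Of all genes tested, 12.4% were called in STAG2 KO cells, 20.5% after knockdown and 5.27% in STAG1 KO cells. In STAG2 KO cells 33 listed genes were tested, and 1 rose and 9 fell. Of the 10 substrates tested, 6 fell, the other falls were 1 each among 7 inhibitors, 5 ADAMTS-like genes and 6 activators, and the rise was PLAT, an activator. The largest were the collagen-binding DCN (-4.04) and LUM (-3.36), TNC (-2.92) and FN1 (-2.27). DCN and LUM are also in the fibroblast list. After knockdown 13 of 27 fell with limma: 7 of 9 substrates and 2 genes each of the inhibitors, ADAMTS-like genes and sheddases, led by LUM (-3.38), DCN (-2.62), THSD4 (-1.52) and FN1 (-1.40). In STAG1 KO cells 5 of 40 rose and 2 fell, with 1 of each direction among 10 substrates and among 10 inhibitors, 2 sheddases higher of 7 and 1 activator higher of 6. LUM (-5.08), CD44 (2.92), SPOCK1 (-2.58) and PLAT (2.56) were the largest.

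Of all genes tested, 15.7% were called in EZH2 KO and 20.6% in SUZ12 KO cells. For the difference of the STAG2 KO and STAG1 KO effects the share was 6.11%, and between the WT clone and parental cells 2.72%. In EZH2 KO cells 8 of 45 listed genes rose and 3 fell: 3 and 3 of 14 substrates, 2 activators of 7, 2 inhibitors of 11 and 1 ADAMTS-like gene of 6 higher. The largest with counts above the floor in the controls were the broad protease trap A2M (6.83) and PCSK6 (3.83). COMP had 1 and 1 counts in the WT clone, 2 in parental cells and 16, 19 and 17 in EZH2 KO libraries, and BCAN 1 over the controls and 47 over EZH2 KO libraries, a ratio of 42.1 (95% counting interval 7.20 to 1698). In SUZ12 KO cells 11 of 45 rose and 8 fell: 3 and 4 of 14 substrates, 2 and 1 of 7 activators, 3 and 1 of 11 inhibitors, 1 and 2 of 7 sheddases, and 2 ADAMTS-like genes of 6 higher. A2M (8.16) was the largest above the floor, and SPINT2 went from 2 and 2 counts in the WT clone and 6 in parental cells to 23, 504 and 22. ADAMTSL4 had 1 count over the controls and 128 over SUZ12 KO libraries, a ratio of 110.8 (19.5 to 4411), and BCAN 30 counts, a ratio of 26 (4.32 to 1060). The difference of the STAG2 KO and STAG1 KO effects was lower for 5 of 41 listed genes, with the largest for ADAMTSL2 (-5.62, 1 count over the 5 STAG2 KO libraries), SERPINE2 (-3.25), TNC (-3.25) and FBN1 (-2.87). Between the WT clone and parental cells 6 of 38 were called, all higher: ADAMTSL3 (1.69), ADAM19 (1.14), FBN2 (1.13) and CD44 (1.09) were the largest. All values in this paragraph are log2 fold changes or differences with an adjusted p under 0.05 from edgeR unless given as counts, shares or ratios.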

How the data were processed

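RNA of 32 libraries was used: 22 of A673 cells in 3 count tables, 4 of the SK-N-MC and A4573 pairs, and 6 of the knockdown. The authors made oligo-dT libraries that do not keep the strand, mapped the reads to hg38 with TopHat 2.0.0 (with SAMtools 0.1.16, and Bowtie in version 0.12.7), with 2 mismatches and up to 5 hits allowed, and deposited raw counts of reads per gene symbol. The counting program and annotation are not stated. For the knockdown the authors deposited a signal per Ensembl gene, normalized reads, and 100% of the values were whole reads divided by 1 factor per library (tolerance 0.01). How those factors were found is not stated. Labels of genes were matched by symbol or Ensembl identifier, and reads of overlapping or antisense genes cannot be separated.

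With R 4.3.3, counts were tested with edgeR 4.0.16 (TMM, its default filter on low counts, quasi-likelihood) and knockdown values with limma 3.58.1 (log2 of the value plus 1, mean of at least 10, trend). Genes counted as called had an adjusted p (Benjamini-Hochberg, every tested gene included) under 0.05. An SE given with edgeR was worked back from its test, as the absolute log2 fold change over the square root of the F statistic. The scripts were tested on simulated data. In the pairs, genes with at least 10 counts were compared with a prior count of 2, and past 2-fold is a level without a test. Intervals and the floor of 3 counts per library cover counting error only, and sums over replicates pool their counts. Alternatives were DESeq2 1.42.0, no filter, library size alone, other controls, single experiments, other pseudocounts, filters and priors, edgeR on recovered reads, and each library left out. For a group left with a single library its spread is assumed to be that of the others.

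The members and lists were chosen with earlier results of these data known. Values per library were given for members called in a comparison, at most the 10 largest log2 fold changes in each, and for TIMP1 to TIMP4, MMP2, MMP9 and MMP14. MMP17 and ADAMTS4 in STAG2 KO cells, values of members in comparisons that did not call them, and the promoters shown were chosen after their values were seen. Up to 4 called genes with the largest log2 fold changes were named from the 5 lists (activators, inhibitors, ADAMTS-like proteins, sheddases, substrates) per comparison, and 4 lists of markers (Ewing sarcoma, fibroblast, epithelial and endothelial) were summed. A further list of markers is not reported here.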

Additional observations from a re-analysis of the deposited data

Results flagged for a closer look

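In groups of 5 or 6 libraries, 6 of 50 groups looked at held a library whose distance from the next was large for the group's range. For independent values around a single mean, chance would flag about 1 in 20 groups. These groups pool experiments 1 and 2 and hold values near the floor, so the rate for them is not known. STAG2 KO 5 of experiment 2 was the highest STAG2 KO library for ADAMTS7 (1.417 CPM, next 0.412) and for MMP10 (1.102 CPM, next 0.218), and STAG2 KO 2 of experiment 2 for MMP25 (0.8175 CPM, next 0.315). STAG2 KO 24 of experiment 1 had the most STAG2 RNA among them (185.4 CPM, next 68.3). Of the controls of experiments 1 and 2, WT clone 2 of experiment 2 was the highest for MMP13 (0.4867 CPM, next 0.215), and the parental line of experiment 1 the lowest for TIMP4 (5.166 CPM, next 10.2). The reasons were not tested. For 8 members the effects of STAG2 KO and of STAG1 KO differed by a test of the difference with edgeR (log2, adjusted p under 0.05): ADAMTS1 2.06, MMP17 1.25, MMP9 -5.86, TIMP4 -5.18, MMP25 -5.17, MMP10 -4.03, MMP14 -1.63 and TIMP1 -1.59. Those of MMP9, TIMP4 and MMP14 stayed called with any library left out. The others were lost without the parental line (adjusted p 0.096 for MMP25 and 0.0639 for ADAMTS1) or the WT clone of experiment 3 (0.0862 and 0.0681), and MMP10, MMP17 and TIMP1 without most other libraries as well, as the report names them. The difference draws on the library labelled STAG1 KO 1, which had STAG1 at the control level.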

How the results depend on the processing

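Members called moved by more than 1.5 times under these settings. With DESeq2, 13 were called in STAG1 KO cells in place of 5, beside 1913 of 14373 genes in place of 757. Without a filter on low counts 9 were called there, beside 1032 of 20397 genes. With only 1 KO and its controls fitted, 13 were called in EZH2 KO cells in place of 7, beside 3429 of 14262 genes in place of 2377 of 15130. That setting called 16 in SUZ12 KO cells in place of 10, beside 4378 of 14397 genes in place of 3112 of 15130. Experiment 2 alone gave 5 for STAG2 KO in place of 12, beside 494 of 13383 genes in place of 1687 of 13574. With no experiment term 0 were called between the WT clone and parental cells in place of 3, beside 5 of 14167 genes in place of 385. When WT clone a and b were added up as a single library, an alternative chosen after seeing the data, 1 member was called in that comparison (185 of 14075 genes). The count for the difference between STAG2 KO and STAG1 KO effects was then 5 in place of 8 (712 of 14666 genes in place of 898 of 14696). With a library left out, the count ran from 7 to 17 for STAG2 KO, 8 to 11 for siSTAG2, 0 to 8 for STAG1 KO, 3 to 14 for that difference, 3 to 11 for EZH2 KO, 6 to 13 for SUZ12 KO and 0 to 7 for the WT clone, and was 0 in each fit for EZH2 KO against SUZ12 KO. Under the other settings tried, the counts, those of the pairs included, stayed within 1.5 times. Of 1473 values of single members under another setting, 1253 kept direction and call, 178 were weaker (142 of them with a library left out), 33 stronger, 1 moved and 8 reversed. None of the 54 called values reversed. The reversed ones were MMP1 in STAG2 KO cells (-0.29 in experiment 2 alone; -0.19 to 0.67 with a library left out), MMP14 in EZH2 KO cells (0.01 by library size alone), TIMP1 in STAG2 KO cells (0.03 in experiment 1 alone), TIMP2 in STAG1 KO cells (-0.09 to 0.21 with a library left out), TIMP3 in the difference of both effects (-0.07 to 0.48) and TIMP4 between the WT clone and parental cells (-0.02 to 0.60). The moved value was TIMP3 in A4573 cells (-1.27 by library size alone, -1.19 as reported). With the replicate number as a replicate block, 10 members were called after knockdown in place of 9. Libraries of the same number were not taken as paired: the correlations of their deviations from the group means were 0.0257, 0.0372 and 0.004, and each siSTAG2 library correlated best with the control of its own number, a hint from the data and not the design. The cause was not tested.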

Other observations

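TIMP3 was listed at 0 in each knockdown library and was abundant in the other A673 libraries, while CD99 was listed at 0 in each library of the count tables and had 3723 to 6707 normalized reads in the knockdown. The cause was not tested.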
